A study of Homo sapiens with 4 samples.

Results

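The heat shock protein and J-protein chaperones of HEK293 cells, a human embryonic kidney line, were examined after stimulation with lysophosphatidic acid (LPA), a lipid of serum that signals through G protein-coupled receptors. Genes were taken as members when a probe set of the array carried their symbol alone and that symbol began with DNAJA, DNAJB, DNAJC, HSPA, HSPB, HSPD, HSPE, HSPH or HSP90, or was BAG followed by a digit. This gave 75 protein-coding genes of 19775 genes measured in all, each read at its brightest probe set. The rule left out 5 antisense or divergent non-coding transcripts. HSPA1A, HSPA1B, HSPA8 and DNAJC25 share their probe sets with other symbols and were not analysed here.

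Chaperones keep other proteins from misfolding. Hsp70 proteins (HSPA genes) bind unfolded stretches in a cycle driven by ATP, J-proteins (DNAJ genes) deliver clients and trigger the ATPase step, and nucleotide exchange factors of the BAG and Hsp110 families release the client. Hsp90 acts later on kinases and receptors, the chaperonins HSPD1 and HSPE1 form a folding chamber in mitochondria, and small heat shock proteins (HSPB genes) hold unfolded proteins without ATP. Many of these genes are driven by the heat shock factor HSF1, and those of the endoplasmic reticulum by the unfolded protein response.

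RNA was measured on 2 LPA arrays and 2 untreated arrays, numbered 1 and 2 within each group. Cells were grown with serum, kept overnight without it and, in the LPA group, given 1 µM LPA for 2 h. The untreated arrays bear the unexplained title Vc and their treatment reads none, so a vehicle is neither stated nor excluded, and whether they too went without serum overnight rests on protocol text that is the same for every sample. Separate cultures are not stated for the replicates, so the tests measure the spread of 4 arrays and that spread may be technical.

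The array LPA number 2 stood apart from the others in some measures but not in all. Its highest signal was 62508, against 93776 on LPA number 1 and 97077 and 104012 on the untreated arrays. Its 3′ to 5′ signal ratio for ACTB was 18.8, against 13.6 on LPA number 1 and 13.4 and 12.6 on the untreated arrays. The same ratio for GAPDH was 1.38 on LPA number 2 and 1.35 on LPA number 1. It was 1.25 and 1.22 on the untreated arrays, so by GAPDH the LPA arrays lay close together and above both untreated arrays. The HEK293 markers VIM, NEFM, NEFL, KRT18 and CDH2 were well above the brightness filter, whereas PAX2 lay near it (93.6 and 97.4 on the LPA arrays, 95.1 and 136 on the untreated arrays) and LHX1 below. Of 5 markers of other cells PTPRC and ALB lay below the filter and PECAM1, COL1A1 and EPCAM above it. The response gene FOSB, an AP-1 subunit, read 185 and 259 on the LPA arrays and 30.0 and 72.4 on the untreated arrays. The untreated values lay below or near the filter, and the limma adjusted p of FOSB, from the fit described below, was 0.9999. FOS, the other response gene read, gave 389 and 323 on the LPA arrays and 131 and 271 on the untreated arrays, so number 2 differed less than number 1.

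No shared shift of the chaperone genes was seen after LPA. Of the 75 members 62 passed the filter, which kept genes with a mean signal of at least 70.5, the 40th percentile of all genes. Of these, 35 were higher and 27 lower on the LPA arrays by the mean log2 difference, that is log2(signal + 1) in LPA minus untreated cells. The higher ones were 56.5% of the members kept, against 51.9% of all genes kept. The median difference of the 62 members was 0.022, against 0.0092 for the 11865 genes kept, and it was 0.052 without LPA number 2. In bulk RNA, fewer cells with a transcript and less of it per cell cannot be told apart. The differences ran from -0.40 to 0.84 among the 62 members and from -1.88 to 3.15 among all genes. A difference above 0.3 in size was found for 14.5% of the members and for 21.6% of all genes.

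In the fit across all genes (limma, two-sided, Benjamini-Hochberg adjustment) 0 of 62 members and 0.0% of all genes passed an adjusted p of 0.05. No member had an unadjusted limma p under 0.05, against 1.74% of all genes, and the smallest among the members was 0.0655, for DNAJB5. Every member had an adjusted p of 0.9999. The median standard error (SE) of a member's log2 difference was 0.20, so differences of that size or smaller could not be told from the spread between arrays. Larger ones were not told from it either. Even DNAJB5, with a difference of 0.84 and an SE of 0.40, had an unadjusted limma p above 0.05. Each LPA value exceeded each untreated value for 6 members (9.68%), where 14.4% of all genes did so. Each LPA value was below each untreated value for another 6 members (9.68%), against 12.5% of all genes.

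The replicate numbers were set side by side, since each holds 1 LPA array and 1 untreated array. The sign of the difference was the same in both numbers for 31 of 62 members, against 53.4% of all genes. Members were higher after LPA in both numbers in 29.0% of cases and lower in both in 21.0%, against 28.3% and 25.2% of all genes. Across the 62 members, which all share the same 4 arrays, the differences of the 2 numbers had Pearson's r = 0.080 and Spearman's rho = 0.097. The same measure over all genes kept was r = 0.055.

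**Figure D1:**
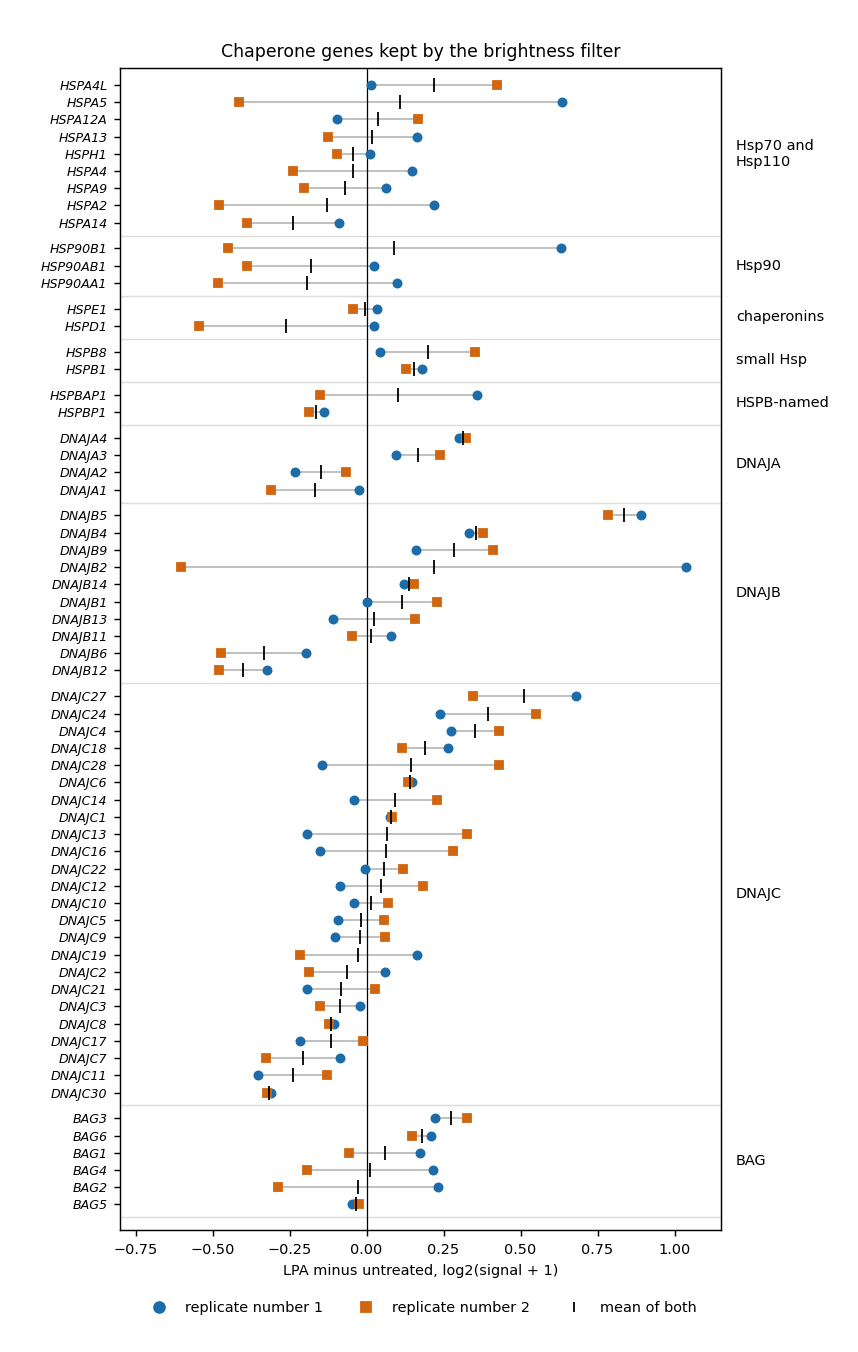
Log2 difference (LPA minus untreated, horizontal axis) of each of the 62 chaperone genes kept, grouped by subfamily, with circles for replicate number 1, squares for number 2 and a tick at their mean. For 31 genes the circle and the square lie on the same side of 0, and HSPA5, HSP90B1 and DNAJB2 have the widest gaps between them.

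The Hsp70 and Hsp110 genes included HSPA5 (BiP), the main Hsp70 of the endoplasmic reticulum. HSPA5 read 23992 and 18226.5 on LPA numbers 1 and 2, and 15464 and 24298 on untreated numbers 1 and 2. The low untreated array was number 1 and the low LPA array was number 2, so the groups overlapped and the 2 numbers went opposite ways. Its difference was 0.63 in number 1 and -0.41 in number 2, with a mean of 0.11 ± 0.24 (SE, 2 arrays per group). The mean was 0.31 without LPA number 2 and -0.089 without LPA number 1. It was 0.44 without untreated number 2 and -0.22 without untreated number 1, so its sign depended on the array left out. A second HSPA5 probe set gave 0.48 and -0.21.

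HSP90B1 (GRP94), the Hsp90 of the same compartment, followed the same course at its brightest probe set. It read 6907 and 4778 on the LPA arrays and 4462 and 6522 on the untreated arrays. The difference was 0.63 in number 1 and -0.45 in number 2, with a mean of 0.091 ± 0.23. The mean was 0.36 without either LPA number 2 or untreated number 2. It was -0.18 without either LPA number 1 or untreated number 1. A dimmer HSP90B1 probe set gave 0.022 and -0.043 and so did not show it.

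The promoters of these 2 genes are shown because they share a motif that no other member with a promoter sequence held. It is the endoplasmic reticulum stress element, through which the unfolded protein response acts. The letters searched were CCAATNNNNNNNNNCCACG, on both strands, in the window from 250 bases before to 50 after each RefSeq start (GRCh38.p14). This motif was chosen after the values of both genes had been seen. It was found in 2 of the 67 members with a promoter sequence and in 0.0916% of 27305 genes. The 250 bases before the start lie at chr9:125241344-125241593 on the minus strand for HSPA5 and at chr12:103930160-103930409 on the plus strand for HSP90B1. They are written 5′ to 3′ along each gene, with the motif in capitals.
HSPA5: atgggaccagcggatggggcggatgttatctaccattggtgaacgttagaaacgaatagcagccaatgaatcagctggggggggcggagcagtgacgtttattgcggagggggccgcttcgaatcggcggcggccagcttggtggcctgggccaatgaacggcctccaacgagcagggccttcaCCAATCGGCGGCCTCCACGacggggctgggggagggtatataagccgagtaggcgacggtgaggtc
HSP90B1: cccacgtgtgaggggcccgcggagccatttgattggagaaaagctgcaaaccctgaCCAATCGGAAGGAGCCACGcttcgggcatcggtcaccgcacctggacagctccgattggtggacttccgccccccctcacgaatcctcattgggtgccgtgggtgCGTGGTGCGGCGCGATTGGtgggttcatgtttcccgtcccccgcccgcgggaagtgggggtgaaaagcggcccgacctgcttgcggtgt
HSPA5 held 1 match in this stretch and HSP90B1 held 2, of which the second reads on the opposite strand. A match describes the sequence and does not show that the site was in use.

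The opposite signs of that pair, at smaller sizes, were found in some but not most other genes of the endoplasmic reticulum. Including the pair, 4 of the 13 members assigned to that compartment that were kept were higher in number 1 and lower in number 2, as were 21.5% of all genes. HSPA13, an Hsp70 of the same compartment, gave 0.16 and -0.13, with a second probe set at 0.082 and -0.081. The BiP cofactor DNAJB11 gave 0.080 and -0.048.

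DNAJB9 (ERdj4), a J-protein that brings BiP to clients marked for degradation, read 1187 and 1606 on the LPA arrays and 1063 and 1207 on the untreated arrays. LPA number 1 lay below untreated number 2, so the groups overlapped, but DNAJB9 was higher in both numbers (0.16 and 0.41), with a mean of 0.29 ± 0.21, which was 0.068 without LPA number 2. Further DNAJB9 probe sets gave 0.68 and 0.45, each higher in both numbers. DNAJC3 (p58IPK), a partner of BiP that also restrains the kinase PERK, read 2349 and 2239 against 2382 and 2484 (-0.085 ± 0.16, or -0.051 without LPA number 2). Readings of 3 further probe sets were 0.20, -0.49 and 0.68, so they did not share a sign.

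The reductase DNAJC10 (ERdj5) differed by 0.014 ± 0.22, DNAJB11 by 0.016 ± 0.15 and HSPA13 by 0.019 ± 0.17. Dimmer DNAJC10 probe sets above the filter gave 0.065, -0.29, 0.29 and -0.92, so they did not share a sign. Over the 13 members of this compartment 11 (84.6%) had a positive mean difference, against 51.9% of all genes. Their medians were 0.080 in number 1 and 0.069 in number 2. Among 12 folding and stress genes of that compartment outside the rule, number 1 ran from -0.14 (CALR) to 0.29 (HERPUD1) and number 2 from -0.25 (CANX) to 0.055 (DDIT3). Of that list, 2 were higher and 10 lower by their mean, with a median of -0.045. The secreted CRELD2 (-0.14 ± 0.16) and the lectin chaperone CANX (-0.13 ± 0.17) had its smallest p. HERPUD1, which acts in degradation from this compartment and was picked out after its values were seen, gave 0.29 and -0.15. With PDIA3, SDF2L1, MANF and XBP1 it was 1 of 5 genes of that list that were higher in number 1 and lower in number 2.

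**Figure D2:**
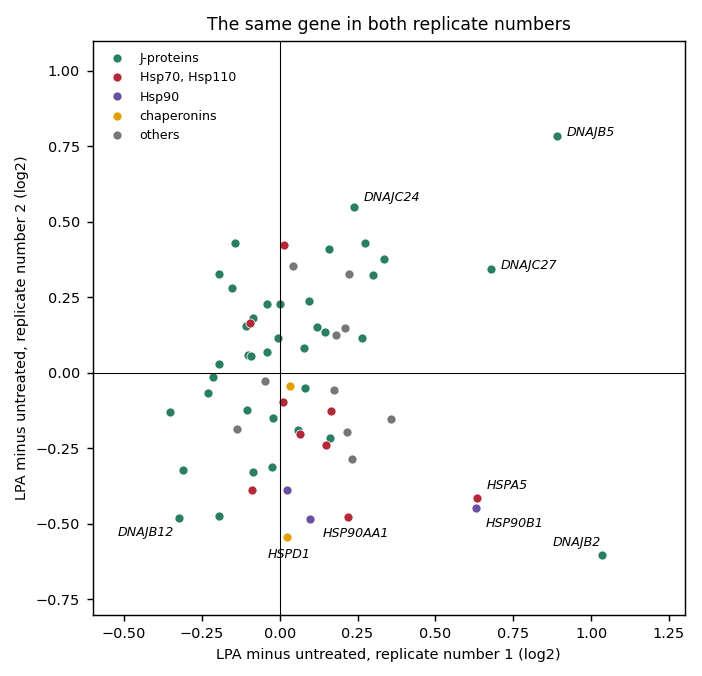
Log2 difference (LPA minus untreated) of each of the 62 members in replicate number 1 (horizontal) and number 2 (vertical), coloured by family. HSPA5 and HSP90B1 lie side by side at 0.63 on the horizontal axis and below 0 on the vertical axis, and DNAJB5 is the farthest point with both differences above 0.

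The cytosolic Hsp90 genes were low on LPA number 2 at every probe set. HSP90AA1, the inducible form, read 67550 and 48136 on the LPA arrays and 63097 and 67252 on the untreated arrays. LPA number 2 was the low array and the other 3 lay close together. The difference was 0.098 in number 1 and -0.48 in number 2 (mean -0.19 ± 0.20), and all 4 HSP90AA1 probe sets gave between -0.48 and -0.51 in number 2. In number 1 they gave between -0.080 and 0.098, and at 2 of them both LPA values were below both untreated values. HSP90AB1, the constitutive form, read 26087 and 18854 against 25655 and 24664, with 0.024 in number 1 and -0.39 in number 2 (-0.18 ± 0.19). The remaining HSP90AB1 probe sets gave -0.19 and -0.023 in number 1 and -0.55 and -0.49 in number 2, each with both LPA values below both untreated values. Without LPA number 2 the differences at the brightest probe sets were 0.052 for HSP90AA1 and 0.053 for HSP90AB1. Under quantile normalization, which gives all arrays the same distribution, they were 0.14 and -0.071.

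The mitochondrial chaperonins form a pair that differed on LPA number 2. HSPD1 (Hsp60), which forms the folding barrel, read 76782 and 48356 on the LPA arrays and 75569 and 70506 on the untreated arrays, again with LPA number 2 as the low array. Its difference was 0.023 in number 1 and -0.54 in number 2, with a mean of -0.26 ± 0.23. A second HSPD1 probe set gave -0.12 and -0.53, and a dimmer one, at 446 to 677, gave -0.063 and 0.23. HSPE1 (Hsp10), the lid of that barrel, read 21051 and 19491 against 20583 and 20074 (-0.0050 ± 0.15), and its 4 arrays lay close together. The 2 genes lie head to head on chromosome 2, HSPE1 on the plus strand from 197500379 and HSPD1 on the minus strand from 197500274, 105 bases apart (GRCh38.p14). HSPD1 turned to 0.073 without LPA number 2 and to 0.045 under quantile normalization. HSP90AA1, HSP90AB1, HSPD1 and HSPE1 have processed pseudogenes, so their probe sets may read near-identical copies too.

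On LPA number 2 low values were common among bright genes across the whole array. Of 253 genes with a mean signal above 20000, 96.0% were lower after LPA in number 2 and 49.8% in number 1, with medians of -0.39 and 0.000075. The 5 members that bright, HSPD1, HSP90AA1, HSP90AB1, HSPE1 and HSPA5, were all lower in number 2 and all higher in number 1, with medians of -0.41 and 0.032. The genes were also put into 5 equal classes of brightness. In the brightest, from a signal of 2759, 19 of 27 members were lower in number 2, as were 66.5% of all genes there, and 7 of 27 were lower in number 1, against 49.3% of all genes. In the third class, with signals from 494 to 1127, 3 of 12 members were lower in number 2, against 39.7% of all genes. All genes of the brightest class had a median of -0.089 in number 2. Dimmer probe sets of HSP90AA1 (11981 on LPA number 2), HSP90AB1 (6997) and HSPD1 (11548) gave -0.49, -0.49 and -0.53 in that number. A still dimmer HSPD1 probe set (524) gave 0.23, and HSPE1, though above 20000, gave -0.042. The part of the array's shape in the values of single chaperones was not tested beyond the settings above.

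**Figure D3:**
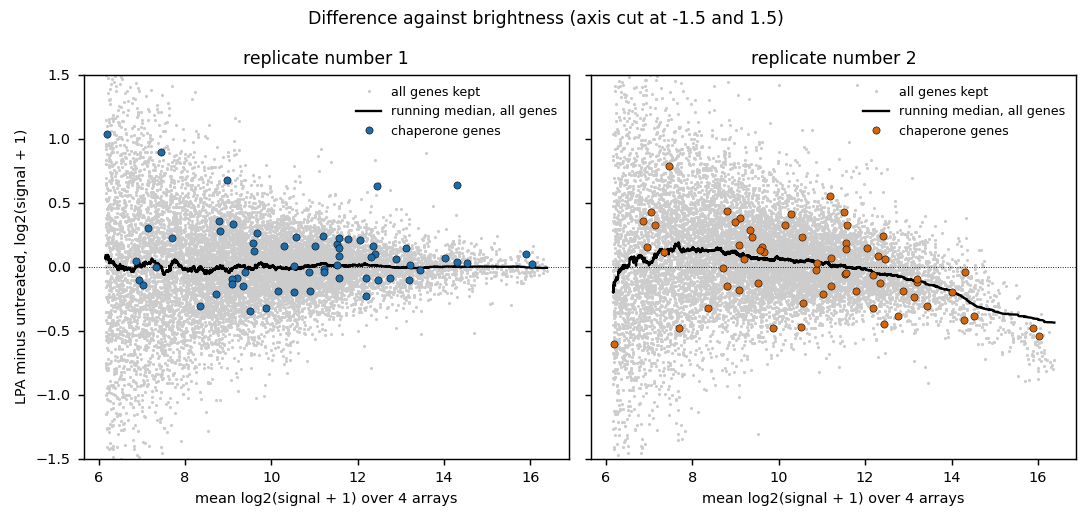
Log2 difference (LPA minus untreated, vertical) against mean log2(signal + 1) over the 4 arrays (horizontal) for replicate number 1 (left) and number 2 (right). Grey points are the 11865 genes kept, the black line is their running median, and the coloured points are the 62 chaperone genes. In number 2 the line drops below 0 at the bright end, where HSPD1 and HSP90AA1 lie, and in number 1 it stays near 0.

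Other Hsp70 members differed by less than their SE, with HSPA14 and HSPA4L as the exceptions. HSPA9 (mortalin), which pulls proteins into mitochondria, read 17431 and 14939 on the LPA arrays and 16665 and 17181 on the untreated arrays (-0.068 ± 0.15). HSPA4 and HSPH1, Hsp110 proteins that recharge Hsp70 with ATP, differed by -0.045 ± 0.16 and -0.043 ± 0.15. HSPA14, which acts at the ribosome with the J-protein DNAJC2, read 7063 and 5745 against 7512 and 7524, so both LPA values were lower (-0.24 ± 0.16, or -0.090 without LPA number 2). Its other probe sets gave -0.076 and 0.0013, and DNAJC2 itself differed by -0.064 ± 0.18. HSPA4L, another Hsp110, read 2555 and 3916 against 2530 and 2921 (0.22 ± 0.22). This turned to -0.089 without LPA number 2, and a second probe set gave 0.011.

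HSPA6, a human Hsp70 that is made under heat and proteotoxic stress and hardly otherwise, stayed below the filter, with 39.1 and 36.7 on the LPA arrays and 61.3 and 29.1 on the untreated arrays. The other 12 members below it were HSPA1L, HSPA12B, HSPB2, HSPB3, HSPB6, HSPB7, HSPB9, DNAJB7, DNAJB8, DNAJC5B, DNAJC5G and DNAJC15. Their signals ran from 2.18 to 108, and they were not tested.

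Of the small heat shock proteins 2 of 7 were kept. HSPB1 (Hsp27), which also binds actin filaments, read 797 and 807 on the LPA arrays and 703 and 739 on the untreated arrays, with no overlap and a difference of 0.15 ± 0.20. HSPB8, which hands clients to autophagy together with BAG3, read 151 and 101 against 146 and 78.8, with a wider gap between the numbers than between the groups (0.20 ± 0.46, or 0.49 without LPA number 2). HSPBP1, a nucleotide exchange factor of Hsp70, and HSPBAP1, a protein that binds HSPB1, fall under the rule through their symbols. They differed by -0.16 ± 0.24 and 0.10 ± 0.26.

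Among the J-proteins, 23 of 38 kept (60.5%) were higher by their mean, against 51.9% of all genes. Their medians were -0.022 in number 1 and 0.10 in number 2. DNAJB5, a cytosolic partner of Hsp70, had the largest difference of the 62 members kept. It read 191 and 284 on the LPA arrays and 103 and 165 on the untreated arrays, so the groups did not overlap. The difference was 0.89 in number 1 and 0.78 in number 2, with a mean of 0.84 ± 0.40 and a limma adjusted p of 0.9999. Without LPA number 2 it was 0.55. With a pseudocount of 64 it was 0.61, since the gene is dim, and its other probe set, at about 3, read nothing above the filter.

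DNAJB4, related to DNAJB5, read 541 and 718 on the LPA arrays and 430 and 553 on the untreated arrays. It was higher in both numbers (0.33 and 0.38, mean 0.36 ± 0.26) although the groups overlapped. The difference was 0.15 without LPA number 2, and a second probe set gave -0.066. DNAJB1 (Hsp40), the J-protein most tied to the heat shock response, read 1182 and 2012 against 1181 and 1718 (0.11 ± 0.28), and both arrays of number 2 lay above both of number 1. A second DNAJB1 probe set was lower in both numbers (-0.14 and -0.17), and the difference turned to -0.021 with the mean of all probe sets and to -0.27 without LPA number 2. DNAJB6, which keeps aggregation-prone proteins soluble, read 1390 and 1218 against 1592 and 1691, with both LPA values lower (-0.33 ± 0.18). DNAJB12, anchored in the membrane of the endoplasmic reticulum, read 899 and 733 against 1124 and 1022 (-0.40 ± 0.21, or -0.25 without LPA number 2). Both its LPA values were lower at that probe set, but 2 others gave 0.017 and 0.35.

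The DNAJA genes encode the J-proteins closest to bacterial DnaJ. DNAJA1 read 11700 and 9411 on the LPA arrays and 11897 and 11679 on the untreated arrays (-0.17 ± 0.16), with LPA number 2 as the low array and -0.011 without it. DNAJA2 differed by -0.15 ± 0.17. DNAJA3 (Tid1), the mitochondrial member, read 5642 and 5882 against 5284 and 4984, with no overlap (0.17 ± 0.14), and a second probe set gave 0.031.

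The DNAJC genes are the most varied, since they share little but the J domain. DNAJC24, which takes part in making diphthamide on the elongation factor EEF2, read 2274 and 3161 on the LPA arrays and 1927 and 2159 on the untreated arrays, with no overlap (0.39 ± 0.20). The difference was 0.16 without LPA number 2. Its other probe set, at 91.2 to 127, gave 0.078. DNAJC18 was also higher without overlap (0.19 ± 0.20). Both LPA values were lower for DNAJC7, which bridges Hsp70 and Hsp90 (-0.21 ± 0.15, or -0.13 without LPA number 2), and for DNAJC11 of the mitochondrial outer membrane (-0.24 ± 0.21). For DNAJC7 the mean of all probe sets turned the difference to 0.23. DNAJC19, a subunit of the mitochondrial import motor, differed by -0.027 ± 0.17, and DNAJC5 (cysteine string protein), which guards synaptic vesicle proteins, by -0.018 ± 0.25.

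The BAG proteins release clients from Hsp70. BAG3, which HSF1 induces and which links Hsp70 to autophagy, read 2939 and 3816 on the LPA arrays and 2517 and 3044 on the untreated arrays. LPA number 1 lay just below untreated number 2, so the groups overlapped, and BAG3 was higher in both numbers (0.22 and 0.33, mean 0.27 ± 0.19). Without LPA number 2 the difference was 0.087. BAG6, which takes tail-anchored proteins to their membrane, read 4428 and 4540 against 3828 and 4098, with no overlap (0.18 ± 0.15), but its next brightest probe sets gave -0.063 and -0.056. BAG1 (0.060 ± 0.16), BAG2 (-0.026 ± 0.20) and BAG5 (-0.036 ± 0.24) had smaller differences.

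**Figure D4:**
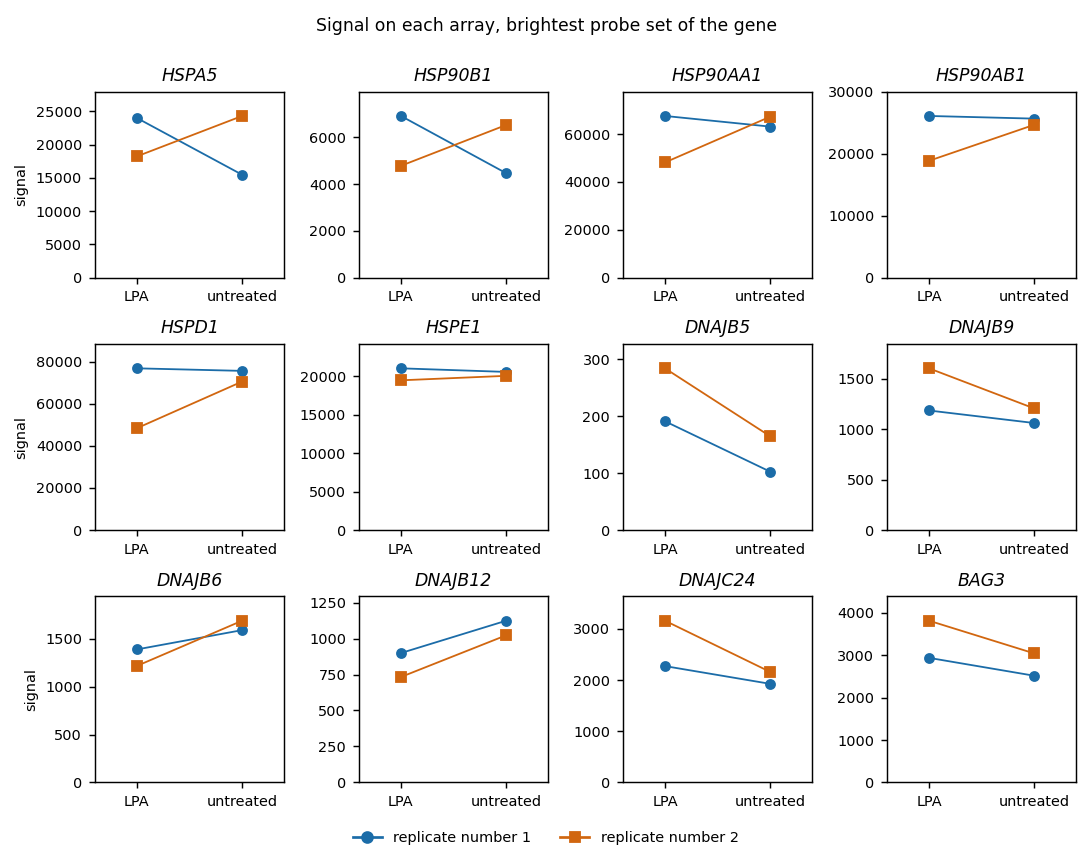
Signal (vertical axis, from 0) of 12 chaperone genes on each array, with LPA left and untreated right in each panel and lines joining arrays of the same replicate number. The lines cross for HSPA5, HSP90B1, HSP90AA1 and DNAJB6, and only the number 2 line is steep for HSP90AB1 and HSPD1. Both lines slope the same way for DNAJB5, DNAJB9, DNAJB6, DNAJB12, DNAJC24 and BAG3.

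How far a gene's probe sets bore each other out was checked for the 44 members with another probe set above the filter. For 16 of them every other probe set had the sign of the brightest one, and the median gap between another probe set and the brightest was 0.20 over 76 probe sets, as large as the median SE. Of the 12 members without overlap between groups, 9 had such other probe sets, and for 1 of these, DNAJC3, another probe set showed the same separation. DNAJB5, DNAJB6 and HSPB1 had 1 probe set above the filter each.

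**Figure D5:**
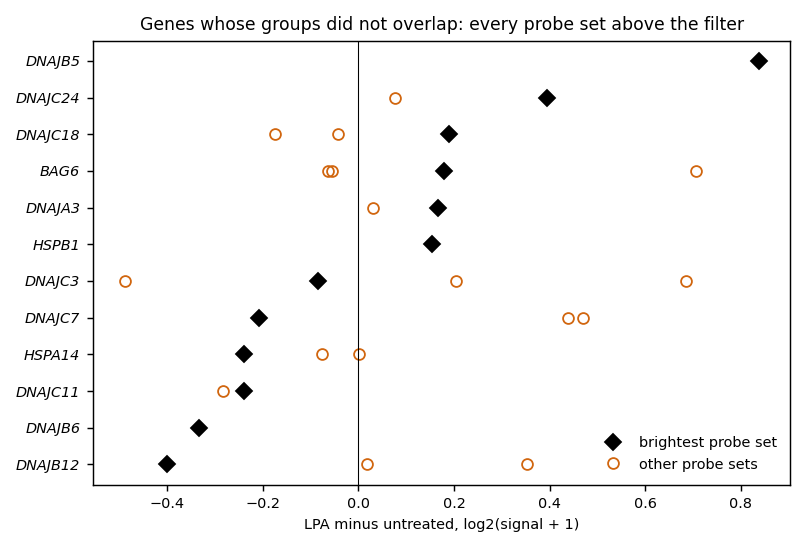
Log2 difference (LPA minus untreated, horizontal) of every probe set above the filter for the 12 members whose groups did not overlap, with diamonds for the brightest probe set and open circles for the others. DNAJC7, DNAJC18 and DNAJB12 have all their other probe sets on the far side of 0, and DNAJC11, DNAJC24 and DNAJA3 keep theirs on the same side.

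Heat shock factors bind repeats of GAA and its inverse. The core GAANNTTC, which reads the same on both strands, was searched in the same promoter windows and stood in 15 of 67 members (22.4%), against 8.21% of genes. Stretches around the first core before a start are shown as examples for 4 members, chosen after their values were seen, with the core in capitals: the bright HSP90AA1 and HSPD1, the heat shock J-protein DNAJB1, and DNAJB6, which was lower in both numbers. They lie at chr14:102087104-102087143 (minus), chr2:197500057-197500090 (minus), chr19:14518451-14518490 (minus) and chr7:157336857-157336896 (plus) in GRCh38.p14. Those of HSP90AA1, HSPD1 and DNAJB1 belong to a further start inside the span of the gene.
HSP90AA1: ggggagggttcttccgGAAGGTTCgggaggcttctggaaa
HSPD1: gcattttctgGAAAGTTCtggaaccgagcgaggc
DNAJB1: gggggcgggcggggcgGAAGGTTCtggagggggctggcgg
DNAJB6: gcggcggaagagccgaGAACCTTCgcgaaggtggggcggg
Of the 11 kept members with a core, 6 were lower and 5 higher in number 2. Their median difference was 0.044 in number 1 and -0.29 in number 2, against 0.024 and -0.019 for the 46 kept members with a promoter sequence and no core. HSPD1, HSP90AA1 and HSP90AB1 in the first group are among the brightest genes of the array. The median signal of that group was nevertheless lower, at 1521 against 1879 for members without a core. Its median of -0.29 is the value of BAG2, which read 1453 on LPA number 2 and 1772 on untreated number 2. Why the medians differed was not tested. A core in this window does not show binding, and its lack says nothing of other sites.

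Of 16 genes listed as responsive to HSF1, 13 were kept, 6 of them higher and 7 lower. Their median was -0.0050, with 0.024 in number 1 and -0.042 in number 2, and became 0.11 under quantile normalization. HSF1 itself read 236 and 489 on the LPA arrays and 359 and 378 on the untreated arrays, and went opposite ways in the 2 numbers (-0.61 and 0.37, mean -0.12 ± 0.36). For the 9 mitochondrial members kept, 3 were higher and 6 lower, with a median of -0.027 that became 0.045 under quantile normalization.

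Genes that work with these chaperones were read from the same fit, in which 0 of them passed over all genes. Of 17 Hsp90 cochaperones kept, 14 were lower, 5 with no overlap (29.4%, against 12.5% of all genes), and 2, STIP1 and FKBP4, were higher with no overlap (11.8%, against 14.4%). By the mean difference 17.6% of the cochaperones kept were higher, against 51.9% of all genes. The median was -0.13, with -0.11 in number 1 and -0.0093 in number 2, where 8 of 17 were higher. CDC37, which loads kinases onto Hsp90, read 1732 and 1813 on the LPA arrays and 2306 and 2325 on the untreated arrays. Both LPA values lay well below both untreated values, and the difference of -0.39 ± 0.16 was close in number 1 (-0.41) and number 2 (-0.36). Its unadjusted limma p was 0.0402 and its adjusted p 0.9999. STUB1, a ubiquitin ligase of Hsp70 and Hsp90 clients, differed by -0.24 ± 0.16, mostly in number 2 (-0.44, against -0.039 in number 1).

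Of 12 genes for the cytosolic chaperonin TRiC and its helper prefoldin, 10 were lower and 16.7% higher, against 51.9% of all genes higher. Their median was -0.016 in number 1 and -0.24 in number 2, where bright genes were lower in general. The TRiC subunits CCT8 (-0.29 ± 0.18) and CCT4 (-0.27 ± 0.18) had the smallest p. Among 11 Hsp70 partners outside the rule 5 were higher and 6 lower. GRPEL2, an exchange factor of mitochondrial Hsp70 (0.25 ± 0.15), and SGTB (0.29 ± 0.17) were higher without overlap. They were 18.2% of the list, against 14.4% of all genes. GRPEL1, TOMM70 and SGTA of the same list were lower without overlap (-0.14 ± 0.15, -0.18 ± 0.16 and -0.19 ± 0.22), 27.3% of it against 12.5% of all genes. For 8 mitochondrial proteases and chaperones the split was 4 and 4, with YME1L1 at -0.15 ± 0.15 and CLPP at -0.12 ± 0.15.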

How the data were processed

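RNA of 4 HEK293 samples, 2 LPA and 2 untreated, was read on Affymetrix arrays of 54675 probe sets. The deposited values are linear intensity values, and the submitters' processing notes name MAS5 without a version or settings. After trimming 2% of probe sets at either end, each array's mean was 500.1, so the arrays had been scaled singly before deposit, and no further normalization was applied.

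The platform annotation gave 1 symbol to 41097 probe sets, which alone were named. Symbols and biotypes were checked against RefSeq (GRCh38.p14). Each gene was read at its brightest probe set by mean log2(intensity + 1), and genes below the 40th percentile were left out. Groups were compared with limma 3.58.1 in R 4.3.3 (lmFit, eBayes with an intensity trend, Benjamini-Hochberg over all genes kept, threshold 0.05). The fit was tried on simulated data in which the arrays varied independently. Same-numbered arrays here deviated together (r = 0.33 across all genes), so that trial does not cover this trait of the data. Precision is limited by having 4 arrays, with a median SE of 0.24 over all genes.

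The members and gene lists were chosen with earlier results of these data known. The genes named were 32 listed chaperones where measured, up to 4 members per subfamily without overlap by smallest p, up to 2 genes per other list, and HSF1. A few further members and genes of the lists are given beside these, picked out after their values were seen. Promoters came from RefSeq for 67 members. The 15 alternatives covered normalization, pseudocount, filter, probe set choice, the intensity trend, a replicate block and leaving out each array.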

Additional observations from a re-analysis of the deposited data

How the results depend on the processing

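With every alternative, 0 chaperone members passed the limma threshold over all genes, and the lowest adjusted p of a named member was 0.181. The count of genes past the threshold was 32 of 11865 with the replicate number as a block (replicate block), 4 with the block and quantile normalization, and 0 to 3 on leaving out 1 array: 2 without untreated number 1, 3 without untreated number 2, 1 without LPA number 1 and 0 without LPA number 2. The labels do not say what the number marks, and whether it pairs the arrays was not tested. Deviations from the group means of same-numbered arrays correlated positively, at r = 0.33 across all genes and 0.58 across the members. Under the block 7 members had an unadjusted limma p under 0.05 and 0 passed. The share of all genes under that p with the block was not counted, so the 7 cannot be read as many or few. The members' median difference ran from -0.064 without LPA number 1 to 0.052 without LPA number 2 on leaving out 1 array, and from -0.000089 (mean of all probe sets) to 0.055 (median centring) otherwise. Of 36 named members tested, 13 kept their sign under all alternatives run, and 58 of 537 values had the opposite sign. Of these, 4 were of differences larger than their SE: HSPD1 was 0.045 under quantile normalization, with or without the replicate block, and ran from -0.59 (without LPA number 1) to 0.073 (without LPA number 2) on leaving out 1 array, and DNAJC7 was 0.23 with the mean of all probe sets. The number of arrays and probe sets near background limit what can be seen of the dim members.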
